A study of Rattus norvegicus with 10 samples.

Results

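The genes described here encode ion channels, their auxiliary subunits and ionotropic receptors whose RNA differed between control and Creb3l1 knockdown supraoptic nuclei (SONs) of the rat. They were taken by the start of their symbols (Kcn, Scn, Cacn, Clcn, Clic, Hcn, Trpc, Trpm, Trpv, Ano, Asic, Gabr, Glr, Gria, Grid, Grik, Grin, Chrn, Htr3, P2rx, Ryr or Itpr) from the 1999 genes for which a symbol was at hand, leaving out genes on a list of KEGG pathway targets, which removed 0 of them. This gave 21 genes of 1999 with a symbol and of 32402 in the counts. The 1999 named genes lie at the top of a list that the study ordered by its own test of knockdown against control, so that the members were chosen by the difference in RNA between knockdown and control SONs in these same animals, and their fold changes are given as a description without a test. Channel genes without a symbol here, among them those that did not differ, were not analysed here.

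Each of 5 male Sprague-Dawley rats received an adeno-associated virus (AAV) carrying a non-targeting short hairpin RNA (shRNA) into one SON and an AAV carrying an shRNA against Creb3l1 into the other. The SONs were taken 3 weeks later, and poly(A) RNA of tissue punches was sequenced from 5 control and 5 Creb3l1 knockdown SONs. The age of the animals is not given in the sources used here. In every animal the non-targeting virus went to the left side and the Creb3l1 virus to the right, so that treatment and side cannot be told apart. The punches were bulk tissue that holds glia and vessels as well as neurones, and fewer cells of a type and less RNA per cell cannot be told apart in them. The same replicate number in both groups marks the same animal.

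The SON is made of magnocellular neurones (MCNs), which synthesise vasopressin or oxytocin, send their axons to the posterior pituitary and release hormone there when action potentials arrive. Sodium and calcium channels carry the action potential and the calcium entry that drives release. Potassium channels repolarise the membrane, set its resting level and end the bursts of firing that are typical of vasopressin neurones, while ionotropic receptors open an ion pore when glutamate, ATP, acetylcholine or another ligand binds.

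Control SONs gave 29754252 to 34382889 counts each and knockdown SONs 29020948 to 33612965. Values per SON are given as CPM, counts scaled to a common library size with edgeR's TMM factors. They are not corrected for gene length, so that levels are compared only between SONs and not between genes. Creb3l1, the transcription factor that the shRNA targets, was at 26.9 ± 5.35 CPM in control and 12.0 ± 3.96 CPM in knockdown SONs (SD, n = 5), with a log2 fold change of -1.16 ± 0.24 (SE), and the groups did not overlap. Its adjusted p was 0.0173 with edgeR's quasi-likelihood test, 0.0586 when the animal was added as a replicate block, and 0.00794, unadjusted, when all splits of the SONs were compared in an exact permutation test (two-sided), which is the smallest p that this test can give. With the sides exchanged only within the 5 animals, the exact permutation p was 0.0625, again the smallest possible, so that this test cannot reach 0.05. Of 8 marker genes listed for MCNs, 4 had a symbol (Creb3l1, Sim1, Pdyn and Cartpt), and like the channel genes they could be named because they stand on the list ordered by this same contrast. Creb3l1, Sim1 and Pdyn were lower in knockdown SONs without overlap, while Cartpt overlapped between the groups and did not pass the edgeR threshold (log2 fold change -1.17 ± 0.40). The hormone genes Avp and Oxt were not analysed here. The summed level of the 4 genes was between 427 and 734 CPM in control and between 63.5 and 329 CPM in knockdown SONs. Pdyn, which encodes the opioid precursor of vasopressin neurones, was at 470 ± 108 CPM in control and 120 ± 87.2 CPM in knockdown SONs. Sim1, a transcription factor of these neurones, was at 55.3 ± 11.1 and 24.5 ± 8.10 CPM, so that both moved the way most of the channel genes did. The part of this shift in the channel results was not tested, and the markers listed for other cell types were not analysed here.

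All 21 genes passed the filter on low counts. Scnn1g passed it through its control SONs alone, since its knockdown SONs held 0 to 6 counts each. In knockdown SONs 18 of the 21 genes were lower and 3 were higher (Scn3b, Clcn1 and Chrne), with a median log2 fold change of -0.72 against 0.04 over the 16286 genes tested. With edgeR's quasi-likelihood test and a Benjamini-Hochberg adjusted p under 0.05, 14 of 21 were past the threshold, 11 lower and 3 higher. The background is 7.86% of all genes tested, 4.49% lower and 3.36% higher, and nothing is read from the comparison because the rule used the same contrast. DESeq2 called 21 of 21 (background 11.7%), which the choice of genes fixed in advance. The list that named them was ordered by the study's DESeq2 test, and the largest DESeq2 adjusted p of a named gene was 0.0411 here. Adding the animal as a replicate block, edgeR called 0 of 21 (background 0.0553%), and the adjusted p ran from 0.05003 to 0.224. Leaving out each SON in turn, edgeR called between 7 and 18 of the 21. Over all genes those fits called from 519 of 16385 to 1699 of 16447, against 1280 of 16286 with all SONs. The 7 genes called in each of those 10 fits were Scnn1g, Kcnt2, Scn3b, Cacna2d1, Chrna5, Cacng3 and Kcnh4. The count was 7 without control replicate 3, without control replicate 5 and without knockdown replicate 2, 8 without knockdown replicate 1 and 9 without knockdown replicate 4, while it was 18 without knockdown replicate 3.

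The groups did not overlap for 13 genes (background 9.65% of genes tested), of which 11 were lower and 2 higher (background 5.5% and 4.16%), and overlapped for 8. Within animals, 15 genes were lower in the knockdown SON of all 5 rats and 3 were higher in all 5 (background 10.1% and 9.86%). A log2 fold change of -1 or below was seen for 8 of the 21 (background 1.42%), and one of 1 or above for 2, Scn3b and Clcn1 (background 0.939%). By class, all 10 potassium channel genes and both calcium channel genes were lower. Of all 1280 genes past the edgeR threshold 57.2% were lower, and nothing is read from the comparison because the rule used the same contrast. The chloride channel and nicotinic receptor genes each gave 1 gene lower and 1 higher. Of the 21 gene products, 5 are auxiliary subunits that form no pore themselves (Scn3b, Cacna2d1, Cacng3, Kcnmb4 and Kcnmb2).

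**Figure D1:**
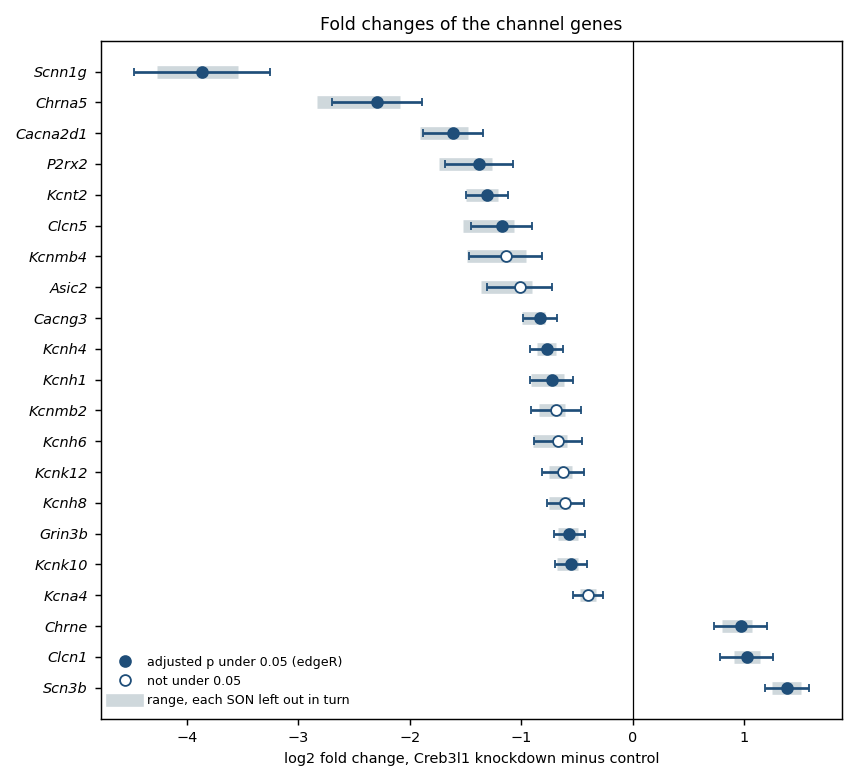
Log2 fold change (Creb3l1 knockdown minus control, x axis) of each channel gene, with the SE as error bar and n = 5 SONs per group. Filled points passed the edgeR threshold, and grey bars give the range over the fits that leave out 1 SON, which runs from -4.27 to -3.54 for Scnn1g and from 1.25 to 1.51 for Scn3b, so that no bar crosses 0.

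The sequences upstream of the start of 4 genes are shown, the 250 bases before the RefSeq start on the gene's own strand in the rat assembly GRCr8. Scnn1g and Chrna5 are shown because their fold changes were the lowest of the 21, Kcnh4 because it alone among the 16 genes with a promoter sequence holds a CACGTG, and Clcn1 as a gene that was higher. Capitals mark a match to one of the motifs searched, and no letter is in capitals for Clcn1. They lie at chr1:185735975-185736224 (plus strand) for Scnn1g, chr8:64265629-64265878 (plus) for Chrna5, chr10:86188477-86188726 (minus) for Kcnh4 and chr4:72138928-72139177 (plus) for Clcn1.
Scnn1g: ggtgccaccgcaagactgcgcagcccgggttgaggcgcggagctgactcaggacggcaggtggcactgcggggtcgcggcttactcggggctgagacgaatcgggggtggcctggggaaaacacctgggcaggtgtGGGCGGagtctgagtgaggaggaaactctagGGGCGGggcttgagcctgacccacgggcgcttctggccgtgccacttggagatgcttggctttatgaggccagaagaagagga
Chrna5: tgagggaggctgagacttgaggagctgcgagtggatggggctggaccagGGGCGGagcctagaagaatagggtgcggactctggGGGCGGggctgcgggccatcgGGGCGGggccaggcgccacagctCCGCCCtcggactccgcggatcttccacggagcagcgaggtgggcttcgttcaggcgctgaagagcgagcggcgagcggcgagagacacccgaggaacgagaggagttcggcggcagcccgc
Kcnh4: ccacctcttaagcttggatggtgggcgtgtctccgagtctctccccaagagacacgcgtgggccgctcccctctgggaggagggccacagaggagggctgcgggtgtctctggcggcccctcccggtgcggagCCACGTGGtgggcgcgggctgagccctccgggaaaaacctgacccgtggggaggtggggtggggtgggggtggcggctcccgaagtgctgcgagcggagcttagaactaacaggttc
Clcn1: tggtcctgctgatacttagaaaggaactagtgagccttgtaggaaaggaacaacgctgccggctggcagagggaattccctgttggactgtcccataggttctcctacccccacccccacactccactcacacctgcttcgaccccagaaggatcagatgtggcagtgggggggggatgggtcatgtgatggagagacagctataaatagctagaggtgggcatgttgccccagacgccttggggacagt
In these windows G and C made up 65.6% of the bases for Scnn1g, 70.4% for Chrna5, 68.8% for Kcnh4 and 56.0% for Clcn1.

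A promoter of 300 bases, 250 before and 50 after the start, was found for 16 of the 21 genes and was searched on both strands for 5 motifs of 6 letters. CACGTG, the core of the G-box, was present in 1 of 16 (Kcnh4) and in 7.08% of the promoters of 27457 rat genes. CCACGT, read on the other strand as ACGTGG, was present in Kcnh4 alone, against 8.67% of all promoters, and it overlaps the CACGTG there on both strands, as CCACGTGG. TGACGT, of the cyclic AMP response element type and read on the other strand as ACGTCA, was in 0 of 16 and in 8.68% of all promoters, which says only that these letters are not in these windows. GGGCGG, the GC-box, which reads CCGCCC on the other strand, was in 11 of 16 and in 36.0% of all promoters, with 2 matches in the sequence shown for Scnn1g and 4 in that for Chrna5. CCGGAA, of the ETS type and with TTCCGG on the other strand, was in Chrne and Kcnt2, against 16.5% of all promoters. The 27457 genes include ones not tested here, and their promoters were not matched for G and C content. Nothing is therefore read from these comparisons.

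Scnn1g (ENSRNOG00000017842) encodes the gamma subunit of the epithelial sodium channel, a pore that conducts sodium without opening by voltage and that depolarises the cells in which it is active. Its RNA was at 1.49, 1.19, 2.21, 1.47 and 1.12 CPM in control replicates 1 to 5 and at 0, 0, 0.133, 0.180 and 0.194 CPM in knockdown replicates 1 to 5. Each control SON lay well above each knockdown SON, and the gene was not detected in knockdown replicates 1 and 2, where 3 counts would correspond to 0.0947 and 0.0931 CPM. In counts, the control SONs held 248 in all and the knockdown SONs 15. The mean in knockdown was 6.77% of control. The fitted log2 fold change was -3.86 ± 0.61, the 6th lowest of all genes tested, and was -3.92 with DESeq2 and -4.42 with limma-voom.

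Asic2 (ENSRNOG00000058308), a subunit of the acid-sensing channels that open when the extracellular pH falls, had 15.8, 30.9, 27.7, 24.8 and 28.1 CPM in the control SONs and 11.8, 11.8, 22.9, 7.75 and 8.97 CPM in the knockdown SONs. The means were 25.5 ± 5.84 and 12.6 ± 6.01 CPM, and the log2 fold change was -1.01 ± 0.29. The groups overlapped through knockdown replicate 3, which lay above control replicate 1, and Asic2 did not pass the edgeR threshold with all SONs but did without control replicate 1 and without knockdown replicate 3. The protein-coding genes LOC134480834 and Rpl35al3 overlap Asic2 in GRCr8.

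Scn3b (ENSRNOG00000057221) went the other way. It encodes the beta 3 subunit of voltage-gated sodium channels, a membrane protein that modulates their gating and their placement at the surface. It had 58.0, 117, 62.0, 83.0 and 90.0 CPM in the control SONs and 251, 230, 226, 199 and 165 CPM in the knockdown SONs. Every knockdown SON was above every control SON, and the knockdown SON was the higher in each of the 5 rats. The mean was 82.0 ± 23.8 CPM in control and 214 ± 33.2 CPM in knockdown SONs, which was 2.61 times control, with a log2 fold change of 1.38 ± 0.20. Among the 2231 genes with a mean of at least 100 CPM, 15 had a log2 fold change of 1 or above, and Scn3b was the 8th highest of them.

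**Figure D2:**
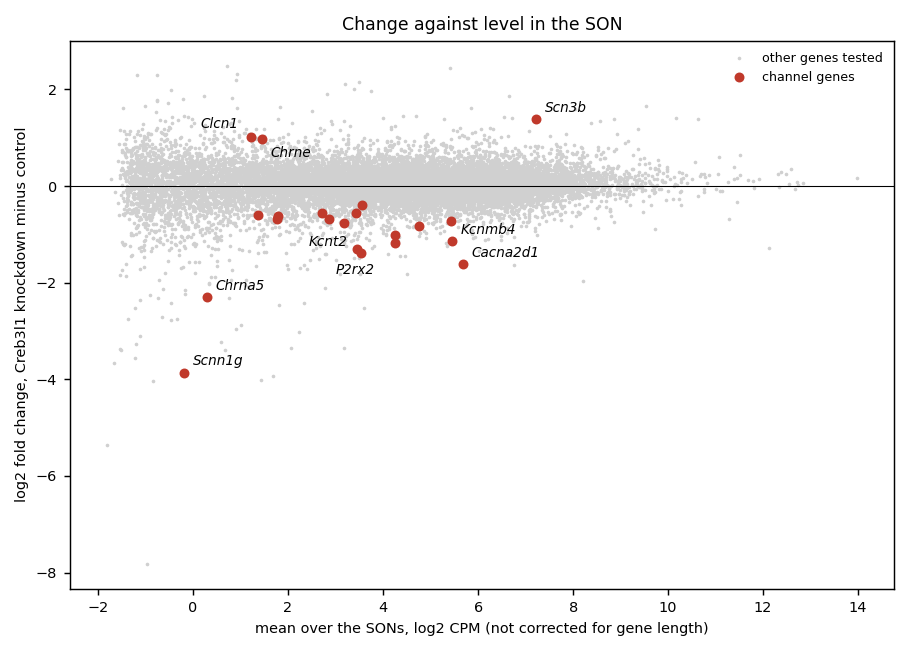
Log2 fold change (y axis) against the mean log2 CPM over the SONs (x axis), for all 16286 genes tested (grey) and the channel genes (red). Scn3b lies at the right with a log2 fold change of 1.38, apart from Clcn1 and Chrne, while Scnn1g and Chrna5 have few counts and the lowest fold changes of the 21, -3.86 and -2.29.

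Both calcium channel genes encode auxiliary subunits. Cacna2d1 (ENSRNOG00000033531) encodes the alpha2delta 1 subunit, which carries calcium channels to the presynaptic membrane and is the binding site of gabapentin. It had 62.8, 87.4, 83.2, 91.2 and 60.4 CPM in the control SONs and 23.6, 26.3, 42.5, 20.1 and 13.3 CPM in the knockdown SONs. The highest knockdown SON stayed below the lowest control SON. The mean was 77.0 ± 14.4 CPM in control and 25.2 ± 10.8 CPM in knockdown, which was 32.7% of control, and the log2 fold change was -1.61 ± 0.27. With the animal as a replicate block its adjusted p was 0.05003 in edgeR, the lowest of the 21 and just over the threshold.

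Cacng3 (ENSRNOG00000012362) is named as a gamma subunit of calcium channels, and its product is also known as one of the proteins that accompany AMPA-type glutamate receptors to the synapse. Its control SONs had 30.3, 42.3, 29.8, 32.0 and 38.2 CPM and its knockdown SONs 19.3, 18.1, 26.4, 16.3 and 16.7 CPM. The groups did not overlap, with knockdown replicate 3 nearest to the control SONs. The knockdown mean was 56.1% of control and the log2 fold change -0.83 ± 0.15.

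The 10 potassium channel genes had log2 fold changes from -1.31 to -0.40, with a median of -0.68, and 4 of them passed the edgeR threshold (Kcnt2, Kcnh4, Kcnk10 and Kcnh1). Kcnt2 (ENSRNOG00000013312), a sodium-activated potassium channel that opens as sodium accumulates during firing, was the lowest. It had 13.7, 16.8, 14.4, 16.8 and 15.6 CPM in the control SONs and 6.47, 5.96, 9.05, 4.07 and 5.65 CPM in the knockdown SONs. The control SONs lay close together and the knockdown SONs were all below them, with means of 15.5 ± 1.38 and 6.24 ± 1.81 CPM. The knockdown mean was 40.4% of control and the log2 fold change -1.31 ± 0.19.

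The ether-a-go-go family of voltage-gated potassium channels gave 4 genes. Kcnh4 (ENSRNOG00000018790), the gene with the CACGTG in its promoter, had control values of 11.9, 12.7, 9.54, 12.2 and 10.6 CPM and knockdown values of 6.82, 8.0, 7.29, 4.69 and 6.58 CPM. These groups did not overlap, and the log2 fold change was -0.77 ± 0.15. Kcnh1 (ENSRNOG00000003841) had control values of 48.3, 53.3, 44.2, 70.0 and 52.3 CPM and knockdown values of 30.5, 32.8, 46.2, 31.8 and 20.9 CPM, with a log2 fold change of -0.72 ± 0.19. Its knockdown replicate 3 was above the control SON of the same rat, so that Kcnh1 was lower in 4 of 5 animals and the groups overlapped. Kcnh1 lost its edgeR call in 9 of the 10 fits that leave out 1 SON and kept it without knockdown replicate 3. Kcnh8 was at 3.01 ± 0.194 CPM in control and 1.98 ± 0.437 CPM in knockdown SONs without overlap, and Kcnh6, in the related subfamily of the ERG channels, was at 8.90 ± 1.63 and 5.59 ± 1.75 CPM with overlap. Neither passed the edgeR threshold, with log2 fold changes of -0.60 ± 0.17 and -0.67 ± 0.21.

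Kcnmb4 and Kcnmb2 encode beta subunits of the large-conductance calcium-activated potassium (BK) channel, which slow or inactivate its opening. Kcnmb4 (ENSRNOG00000054458) had 71.3, 44.6, 52.1, 72.8 and 58.5 CPM in the control SONs and 23.7, 24.3, 49.1, 28.4 and 10.4 CPM in the knockdown SONs. In 4 knockdown SONs it was far below the control range, and in replicate 3 it was inside it. The means were 59.8 ± 12.2 and 27.2 ± 14.0 CPM and the log2 fold change was -1.14 ± 0.33, which did not pass the threshold with all SONs but did without knockdown replicate 3. Kcnmb2 was at 4.08 ± 0.929 in control and 2.54 ± 0.646 CPM in knockdown SONs (log2 fold change -0.69 ± 0.23, not past the threshold), and was lower in 4 of 5 animals.

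Of the 2-pore domain channels, which carry a resting potassium leak, Kcnk10 had 7.43, 8.72, 7.64, 7.34 and 7.63 CPM in the control SONs and 5.21, 5.24, 5.39, 6.71 and 3.87 CPM in the knockdown SONs. The control SONs had the smaller spread and the groups did not overlap, with a log2 fold change of -0.55 ± 0.14 that was called in 5 of the 10 fits that leave out 1 SON. Kcnk12, a family member that is known as silent when expressed alone, was at 4.13 ± 0.841 and 2.67 ± 0.507 CPM (log2 fold change -0.62 ± 0.19, not past the threshold). Kcna4, a rapidly inactivating channel of the A-current, was at 13.2 ± 1.31 and 10.04 ± 1.69 CPM without overlap between the groups. Its log2 fold change of -0.40 ± 0.14 was the nearest to 0 of the 21, and it passed the edgeR threshold in none of the fits that leave out 1 SON. DESeq2 called it as it called all 21, which follows from a choice made on a list ordered by that test.

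Clcn5 and Clcn1 belong to the same chloride channel family and moved in opposite directions. Clcn5 (ENSRNOG00000002862) encodes an exchanger of chloride and protons on endosomes. It had 20.2, 23.8, 27.3, 34.7 and 25.3 CPM in the control SONs and 10.6, 9.15, 20.8, 10.3 and 7.196 CPM in the knockdown SONs. Here too knockdown replicate 3 stood above the other 4 and reached into the control range. The knockdown mean was 44.2% of control, with a log2 fold change of -1.18 ± 0.27 that became -1.52 without that SON. The call held in 4 of the 10 fits that leave out 1 SON.

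Clcn1 (ENSRNOG00000016917) encodes a voltage-gated chloride channel of the surface membrane, best known from skeletal muscle. It had 1.15, 1.43, 1.29, 2.01 and 1.56 CPM in the control SONs and 3.66, 3.47, 3.56, 2.70 and 1.77 CPM in the knockdown SONs. Of the knockdown SONs, only replicate 5 fell within the control range, and the knockdown SON was the higher in each of the 5 rats. The means were 1.49 ± 0.331 and 3.04 ± 0.800 CPM and the log2 fold change was 1.02 ± 0.24, also called in 4 of the 10 fits that leave out 1 SON. Fam131b overlaps Clcn1 on the opposite strand in GRCr8, and it was also higher in knockdown SONs, at 41.9 ± 9.02 and 74.7 ± 13.8 CPM (log2 fold change 0.84 ± 0.17). The libraries were stranded, but the strand setting of the counting is not given in the sources used here, and reads of one gene counted for the other were not tested.

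The nicotinic acetylcholine receptor subunits also split. Chrna5 (ENSRNOG00000013610) encodes the alpha 5 subunit, which joins other subunits in neuronal receptors and raises their calcium permeability. It had 1.62, 1.91, 2.07, 2.65 and 1.33 CPM in the control SONs and 0.158, 0.372, 0.865, 0.288 and 0.258 CPM in the knockdown SONs, from 5 to 88 counts per SON. No knockdown SON reached the lowest control SON. The mean in knockdown was 20.3% of control, and the log2 fold change was -2.29 ± 0.40, or -2.83 without knockdown replicate 3.

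Chrne encodes the epsilon subunit, known from the adult receptor of the neuromuscular junction. Its control SONs had 1.82, 2.24, 2.04, 0.992 and 1.89 CPM and its knockdown SONs 4.29, 4.16, 2.36, 3.17 and 3.61 CPM, from 33 to 136 counts per SON. The groups did not overlap, though knockdown replicate 3 lay only just above the control SONs. The log2 fold change was 0.97 ± 0.24, and the edgeR call held in 2 of the 10 fits that leave out 1 SON. Gp1ba, on the opposite strand, and C10h17orf107 overlap Chrne. Gp1ba was at 0.520 ± 0.361 CPM in control and 1.35 ± 0.400 CPM in knockdown SONs, and its log2 fold change of 1.38 ± 0.40 did not pass the threshold.

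P2rx2 (ENSRNOG00000037456) encodes a subunit of the ATP-gated cation channels through which ATP released with other transmitters excites neurones. It had 16.1, 12.4, 18.7, 18.0 and 17.9 CPM in the control SONs and 7.55, 3.82, 11.6, 5.23 and 3.68 CPM in the knockdown SONs. The highest knockdown SON, again replicate 3, was just below the lowest control SON. The knockdown mean was 38.4% of control and the log2 fold change was -1.38 ± 0.31, called in 5 of the 10 fits that leave out 1 SON. Lrcol1 overlaps P2rx2 in GRCr8.

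Grin3b, an NMDA receptor subunit that lowers calcium permeability where it is built in, was the one ionotropic glutamate receptor gene. Its control SONs had 12.2, 10.4, 12.8, 15.9 and 12.6 CPM and its knockdown SONs 10.4, 8.28, 8.72, 8.94 and 6.84 CPM. Control replicate 2 was only just above knockdown replicate 1 and the groups did not overlap. The log2 fold change was -0.57 ± 0.14, called in 5 of the 10 fits that leave out 1 SON. Tmem259 overlaps Grin3b and was lower as well, at 104 ± 3.95 CPM in control and 87.1 ± 1.96 CPM in knockdown SONs (log2 fold change -0.25 ± 0.05).

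**Figure D3:**
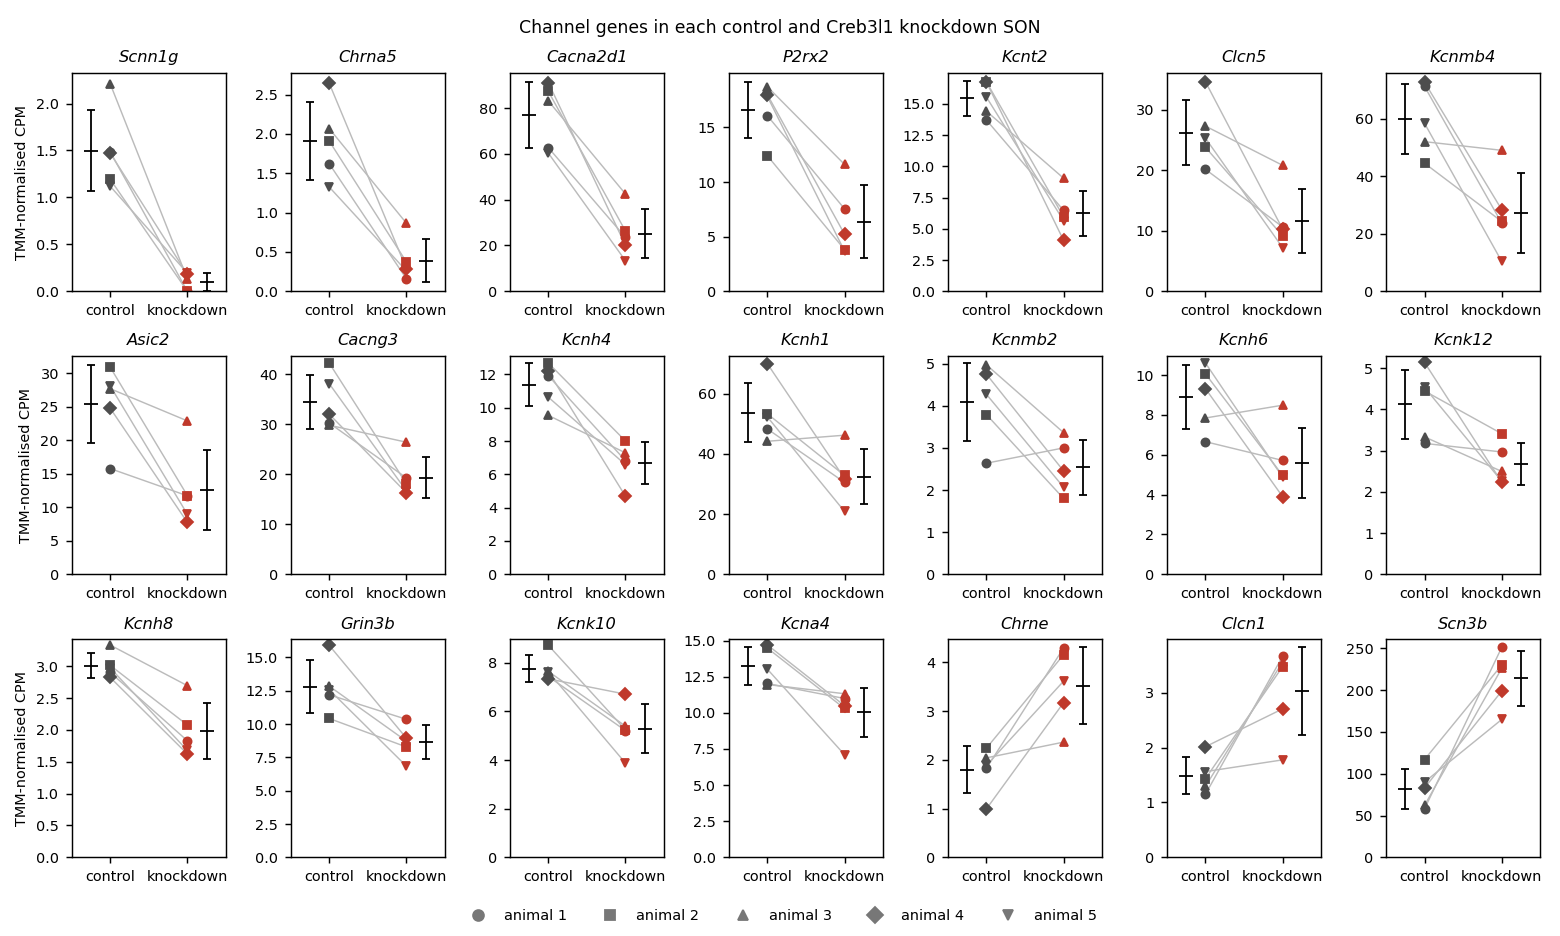
CPM of each channel gene in every SON (y axis, 1 panel per gene with its own scale), with control and Creb3l1 knockdown SONs as points, lines joining the SONs of 1 animal, and the mean and SD of 5 SONs per group. The points of knockdown replicate 3 are the highest of their group for 13 of the 18 genes with lower means, among them Cacna2d1 at 42.5 CPM and Kcnmb4 at 49.1 CPM.

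The knockdown SONs differed among themselves in a way that many of the genes shared. Knockdown replicate 3 had the highest value of its group for 13 of the 18 genes with lower means (72.2%), against 56.4% of the 732 genes of the whole table that passed the edgeR threshold and were lower. Knockdown replicate 5 had the lowest value for 8 of the 18 and replicate 4 for 7, against 41.9% and 19% of the 732 genes. The sets are unlike, since only 11 of the 18 passed that threshold, and nothing is read from the comparison. Over the 18 genes, the median level was 73.2% of the control mean in knockdown replicate 3 and 52.6% in the other knockdown SONs. Sim1, Pdyn and Cartpt, at 35.3, 259 and 26.2 CPM, were also highest in knockdown replicate 3 within their group. Creb3l1, on the same marker list, was at 8.69 CPM there and was highest in knockdown replicate 4, at 16.7 CPM. The part of this SON's makeup in the channel values was not tested.

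Within animals, 17 of the 18 genes had a ratio of knockdown to control SON in every rat, the exception being Scnn1g with its counts of 0. The smallest fall was that of animal 3 for 13 of these 17 genes. The median log2 ratio was -0.66 in animal 1, -1.02 in animal 2, -0.39 in animal 3, -1.26 in animal 4 and -1.19 in animal 5. Creb3l1 gave another order, with log2 ratios of -1.51, -0.94, -1.82, -1.01 and -0.78, so that the animals with the largest falls of Creb3l1 (animals 3 and 1) had the smallest median falls of the channel genes. With 5 animals no relation was computed. A principal component analysis gave a main axis, with 52.2% of the spread, on which control and knockdown SONs were mixed. Knockdown replicates 1 to 5 lay at 2.72, -27.3, -47.4, 36.1 and 70.0 on this axis. Control replicates 1 to 5 lay at 54.8, -25.2, 16.8, -50.1 and -30.2. The part of this axis in the order of the animals was not tested. On the second axis, with 17.3% of the spread, the groups did not overlap. There the control SONs lay from 16.1 to 35.0 and the knockdown SONs from -30.7 to -13.6. Of the genes that were higher, Scn3b had log2 ratios of 2.11, 0.98, 1.87, 1.26 and 0.87 and Clcn1 of 1.67, 1.28, 1.46, 0.42 and 0.18, both highest in animals 1 and 3, while Chrne was highest in animal 4 and lowest in animal 3, at 1.68 and 0.21.

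**Figure D4:**
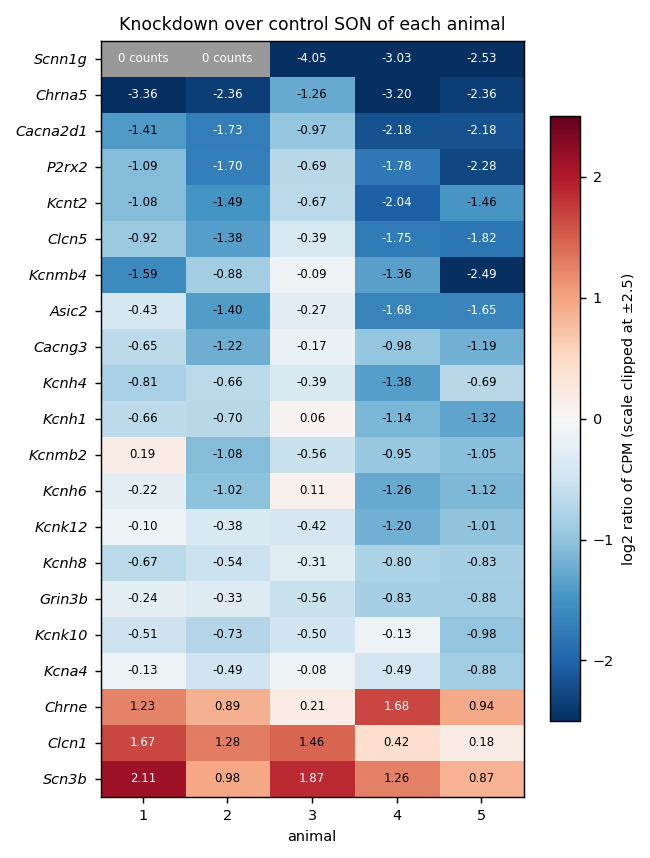
Log2 ratio of the knockdown to the control SON of each animal (columns) for each channel gene (rows) as a colour scale, blue for lower and red for higher in the knockdown SON, with grey where a SON had 0 counts. The column of animal 3 is the palest for most genes, with values such as -0.09 for Kcnmb4 and 0.06 for Kcnh1, and Scn3b, Clcn1 and Chrne are red in each animal.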

How the data were processed

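Reads were trimmed by the authors at a phred cutoff of 30 and mapped with STAR to rat Rn6, featureCounts gave read numbers per gene, and these raw counts were deposited without normalisation. The handling of reads that map to several places and the strand setting are not given in the sources used here. The deposited table held 32402 genes and its header line has more fields than its rows, so that the 10 sample names were assigned in their order to the 10 count columns. This was checked over 1691 genes with at least 100 counts in every SON, where the ratio of the counts to the study's normalised values under the same name varied by at most 0.000144% (coefficient of variation), against at least 11% under any other name. Symbols came from a supplementary table of the study that was held in part and ordered by the study's DESeq2 1.28.1 test. Its normalised values served only for that check and its tests were not used, and the largest adjusted p of a named gene in the DESeq2 fit made here was 0.0411, while 191 genes past that fit's threshold had no symbol here.

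The analysis of the counts used edgeR 4.0.16 under R 4.3.3. Of 24286 genes with at least 1 count, filterByExpr with a minimum count of 10 left 16286, which were scaled with TMM factors and compared with the quasi-likelihood test with no animal term. The paper's methods name DESeq2 and state no pairing term. Standard errors follow from each fold change and its F statistic, and p-values were adjusted over all genes tested. The total was at least 29020948 counts per SON. A count of 0 was read with a floor of 3 counts, which covers counting error only. All pairs of replicates differed by more than sampling noise (lowest chi-square per degree of freedom 29.1).

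The left and right SON of an animal form a pair by the labels. The deviations from the group mean, taken over genes, correlated between left and right at -0.12, 0.45, -0.44, -0.32 and -0.55 in the 5 animals. The mean correlation was -0.196 for SONs of the same animal and 0.054 for SONs of different animals. Alternatives were DESeq2 1.42.0, limma-voom (limma 3.58.1), the animal as replicate block, scaling by RLE factors or by library size, no filter or one of 10 counts in every SON, a stricter threshold of 0.01, and each SON left out in turn. The fitting was run on simulated counts drawn independently for each SON with no animal effect, which cannot show how it handles variation shared between SONs.

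The genes and lists were chosen with earlier results of these data known. Named are all 21 genes, Creb3l1, MCN markers and, chosen after their values were seen, the protein-coding genes that overlap a channel gene in RefSeq GRCr8. Of a list of 42 genes for magnocellular excitability, 6 had a symbol, all among the 21 (Kcnmb4, Kcna4, Scn3b, Scnn1g, P2rx2 and Asic2). Planned counts over all channel genes and over partner subunits could not be made without symbols. Promoters came from RefSeq GRCr8, matched by symbol, and GRCr8 coordinates were not mixed with those of Rn6.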

Additional observations from a re-analysis of the deposited data

Results flagged for a closer look

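In 50 groups of 5 SONs (the channel genes and the marker genes in each condition), Dixon's test set 1 SON apart from the other 4 in 5 cases, and chance alone sets apart about 1 in 20 groups. Knockdown replicate 3 was the high SON in 3 of them. Clcn5 was at 20.8 CPM there and at 7.196 to 10.6 CPM in the other knockdown SONs, and its log2 fold change was -1.18 with all SONs and -1.52 without this one, past the edgeR threshold both times. Asic2 was at 22.9 CPM there and at 7.75 to 11.8 CPM in the others, with a log2 fold change of -1.01 that became -1.36 and passed the threshold without this SON. Cartpt, a neuropeptide gene of the MCN list, was at 26.2 CPM there and at 6.57 to 11.2 CPM in the others, with a log2 fold change of -1.17 that became -1.73 and passed the threshold. Kcnk10 was set apart in control replicate 2, at 8.72 CPM against 7.34 to 7.64 CPM, and its log2 fold change of -0.55 became -0.54 and lost its call without that SON. Kcna4 was set apart as low in knockdown replicate 5, at 7.10 CPM against 10.3 to 11.3 CPM, and its log2 fold change of -0.40 became -0.33, past the threshold neither time.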

How the results depend on the processing

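In every alternative, each channel gene tested kept the sign of its log2 fold change, with 18 lower and 3 higher (16 and 3 with at least 10 counts in every SON, where Scnn1g and Chrna5 were not tested). The genes were chosen by this contrast in these same SONs, so the kept signs are no separate support. The number of channel genes past the threshold was 14, and 21 with DESeq2, 17 with limma-voom and with library size only, 15 with RLE factors, 12 with no filter and 13 with at least 10 counts in every SON. It was 5 at a threshold of 0.01, 0 with the animal as a replicate block in edgeR, and 7 to 18 when each SON was left out. The count with DESeq2 was fixed in advance, because the genes were named from a list ordered by that test. The number of all genes past the threshold was 1280 of 16286, and 2190 of 18673 with DESeq2, 308 at a threshold of 0.01 and 9 with the replicate block. It was 1353 with limma-voom, 1480 with library size only and 1321 with RLE factors, each of 16286. With no filter it was 950 of 24286, and with at least 10 counts in every SON 1251 of 15170. This number ran from 519 to 1699 when each SON was left out, the lowest without knockdown replicate 1 and the highest without knockdown replicate 3. It was 558 without control replicate 3, 613 without control replicate 5, 614 without knockdown replicate 2, 817 without control replicate 2 and 834 without knockdown replicate 4. Of the called genes 57.2% were lower, and 76.4% with library size only, where the median log2 fold change of all genes was -0.02 in place of 0.04. The log2 fold change of Creb3l1 was -1.16, and -1.21 with the replicate block, where its adjusted p in edgeR was 0.0586. It lay between -1.33 and -1.02 when each SON was left out, with adjusted p values up to 0.0498. The replicate block fit estimates 5 animals from 10 SONs and has fewer residual degrees of freedom, and the cause of its fewer calls was not tested. Depth limits Scnn1g and Chrna5, which had 0 to 6 and 5 to 26 counts in the knockdown SONs. The planned counts over all channel genes were not run.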

Other observations

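The coefficient of variation between SONs was larger in the knockdown than in the control group for 17 of the 21 channel genes and smaller for 4 (Scn3b, Chrne, Grin3b and Kcnk12), with a median of 18.7% in control and 26.4% in knockdown SONs. It was larger in knockdown for 16 of the 18 genes with lower means, for 72% of the 731 genes that passed the edgeR threshold and were lower, and for 58.3% of 16285 genes tested. These sets are unlike, since only 11 of the 18 genes passed that threshold.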
